A study of Rattus norvegicus with 12 samples.

Results

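The 45 genes described here encode SR proteins, hnRNP proteins, subunits of the SF3A and SF3B complexes and Sm or other snRNP proteins, and were followed in 12 RNA sequencing libraries of rat cardiac progenitor cells. They were chosen by name, as every gene of the count files whose identifier matched a rat protein-coding symbol starting with Srsf, Hnrnp, Sf3a, Sf3b or Snrp and which held at least 10 counts over the 12 libraries. This gave 45 of the 16924 genes in the files: 10 SR genes, 17 hnRNP genes, 8 SF3A and SF3B genes and 10 Sm and snRNP genes. A further 2 genes matched by name but fell below the minimum, Snrpn with 2 counts and Srsf12 with 0.

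The libraries fell into 4 groups of 3: suspension, fibronectin, laminin and no coating, the last being bare dishes. Per the labels, all cells came from a published clone of rat cardiac progenitors, so each group models this 1 clonal line, grown in F12 medium with 10% fetal bovine serum, leukemia inhibitory factor, basic fibroblast growth factor, erythropoietin and glutathione. For the experiment, cells were plated sparsely, so that they did not touch, in 0.1% serum for 2 h. The suspension libraries carry the same protocol text, and how those cells were handled is not described. No genetic change or drug is named for any group. Each library has a batch in the labels that equals its replicate number, and the labels do not say what a batch was. The submitters call the libraries biological triplicates, and because the line is clonal, p-values measure the spread between batches of 1 line and not between animals.

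SR proteins carry RNA recognition motifs and a tail rich in arginine and serine, and bind exonic enhancers to help recruit the spliceosome. hnRNP proteins coat nascent transcripts and often act on the same exons as silencers, while SF3A and SF3B hold the U2 snRNP on the branch site and Sm proteins form the ring at the core of the spliceosomal snRNPs. Many SR and hnRNP genes contain ultraconserved "poison" exons or introns whose inclusion or retention sends the transcript to nonsense-mediated decay, so that their mRNA level is itself set by splicing. Counts per gene, as used here, do not separate such isoforms.

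Library totals ran from 15875160 to 20852160 counts, and the 45 genes took 1.23% to 1.25% of the counts in suspension, 1.10% to 1.24% in attached replicates 1 and 2, and 1.02% to 1.07% in attached replicate 3. The labelled cell type could be checked only in part: Gata4 stood between 74.5 and 98.4 CPM (a gene's counts scaled to the library total) and Kit between 2.39 and 3.68, the mesenchymal gene Vim between 4456 and 5730.2 CPM, and Nkx2-5, Myh7, Isl1 and Abcg2 had 0 counts. Other markers differed from these: the cardiomyocyte gene Tnnt2 stood between 1.57 and 6.16 CPM and the mesenchymal gene Thy1 between 0 and 0.18. The smooth muscle genes Smtn and Tagln stood between 155 and 303 CPM and between 155 and 220, and Cnn1 between 0 and 0.30. The 3 attached libraries of replicate 3 lay below the other attached libraries in 18 of the 45 genes, above them in 14 and overlapped them in 13. Of all genes tested, 20.3% lay below and 20.3% above. In suspension, replicate 3 lay between -0.14 and 0.10 log2 units from the mean of replicates 1 and 2 in all 45 genes. The counts of called genes, and the values of the genes the results turn on, are therefore given with and without batch 3. Beside this, genes of ribosomal proteins took 2.47% to 2.62% of counts in suspension, 2.89% to 3.21% in attached replicates 1 and 2 and 3.34% to 3.51% in attached replicate 3. Ribosomal RNA took 1.25% to 2.55% in attached replicate 3 and 0.448% to 4.24% in the other libraries. The part of either in the results below was not tested.

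Expressed as CPM from library totals, summed hnRNP levels were 6718, 6768 and 6879 in suspension replicates 1, 2 and 3. They were 6012, 6838 and 5566 on fibronectin, 6389, 6770.1 and 5327 on laminin and 6258, 6402 and 5207 with no coating. Replicate 3 was the lowest library on each surface and the highest in suspension. SR genes summed to 2761, 2645 and 2690.2 CPM in suspension, 2275, 2611 and 2247 on fibronectin, 2368, 2539 and 2096 on laminin and 2449, 2541 and 2119 with no coating. All 9 attached libraries lay below all 3 suspension libraries in this sum. SF3A and SF3B genes summed to between 1931 and 1965 CPM in suspension and between 1772 and 1936 on the surfaces, where fibronectin replicate 2 and laminin replicate 2 alone reached the suspension range. Sm and snRNP genes summed to between 929.9 and 941 CPM in suspension and between 917 and 1076 on the surfaces, with replicate 1 the lowest library on each surface. In bulk libraries, fewer cells that express a gene and less of its RNA per cell cannot be told apart.

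**Figure D1:**
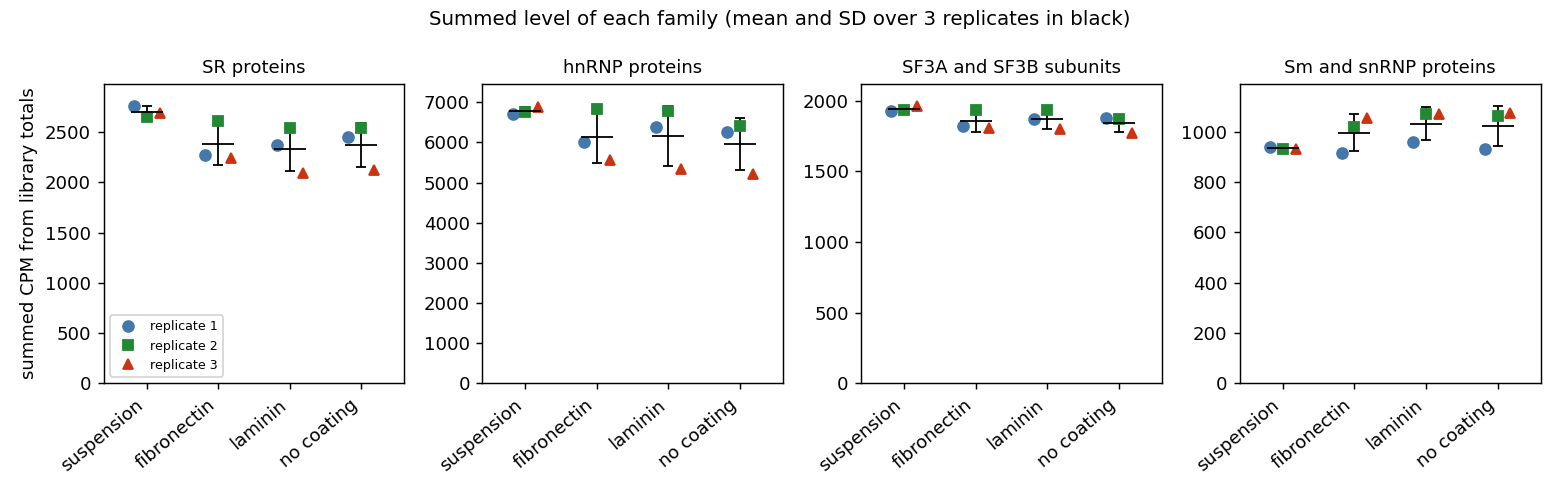
Summed CPM from library totals (vertical axis, from 0) of the 4 gene families in each of the 12 libraries, by group; points are replicates 1 to 3 and the black bar is the mean with its SD (n = 3). On the surfaces replicate 3 has the lowest hnRNP sums, between 5207 and 5566 CPM, against 6718 to 6879 in suspension.

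Promoters are shown for Srsf7, Srsf10 and Sf3b5. The reason is that these 3 genes alone passed edgeR's test against suspension over all 12 libraries, without the batch in the model. RefSeq promoters of assembly GRCr8 were matched for 44 of the 45 genes. Each stretch below is the 200 bases from 250 to 51 bases upstream of the RefSeq start, printed 5′ to 3′ on the gene's strand, with matches to the searched motifs in capitals. The stretches lie at chr6:20563802-20564001 (+) for Srsf7, chr5:153372066-153372265 (+) for Srsf10 and chr1:9176939-9177138 (+) for Sf3b5.
Srsf7: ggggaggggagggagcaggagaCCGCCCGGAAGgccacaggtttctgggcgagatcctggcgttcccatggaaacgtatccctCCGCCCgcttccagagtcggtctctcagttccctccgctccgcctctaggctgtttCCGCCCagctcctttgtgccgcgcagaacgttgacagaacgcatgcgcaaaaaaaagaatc
Srsf10: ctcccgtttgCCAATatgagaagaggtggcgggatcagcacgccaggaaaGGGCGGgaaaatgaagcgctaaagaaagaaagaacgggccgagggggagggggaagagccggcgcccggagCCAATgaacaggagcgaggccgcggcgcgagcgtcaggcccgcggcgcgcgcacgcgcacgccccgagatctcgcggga
Sf3b5: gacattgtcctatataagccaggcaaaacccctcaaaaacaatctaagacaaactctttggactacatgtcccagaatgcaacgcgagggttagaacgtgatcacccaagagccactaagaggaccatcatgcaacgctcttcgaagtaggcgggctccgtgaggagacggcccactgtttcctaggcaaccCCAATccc
The motifs searched on either strand were the GC box GGGCGG, the CCAAT box CCAAT, the ETS motif CCGGAAG, the TATA box TATAAA, the cyclic AMP response element TGACGTCA and the E-box CACGTG. The Srsf7 stretch held 3 GC boxes and 1 ETS motif, which shares letters with the first GC box. The Srsf10 stretch held 1 GC box and 2 CCAAT boxes, and the Sf3b5 stretch held 1 CCAAT box. Over the whole promoter entries, a GC box was present in 26 of the 44 genes (59.1%) and in 40.3% of 19005 protein-coding promoters. The CCAAT box was present in 47.7% of the 44 and in 35.5% of all, the ETS motif in 29.5% and 9.51%, the TATA box in 13.6% and 12.3%, the cyclic AMP element in 2.27% and 2.02% and the E-box in 11.4% and 6.39%. A match is a run of letters and not a bound site.

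Against suspension, Srsf7 was called lower on all 3 surfaces, Srsf10 lower on laminin and Sf3b5 higher on fibronectin and laminin. Where these last 2 genes were not called, their log2 fold changes had the same direction. Srsf10 stood at -0.67 on fibronectin and -0.78 with no coating, and Sf3b5 at 0.26 with no coating. The other 42 genes did not pass the test on any surface when all 12 libraries were fitted without the batch in the model. Further genes passed when the batch was a replicate block, as given below. Calls over the 12 libraries are from the fit without this block unless it is named. On fibronectin, 1 of the 45 genes was called higher and 1 lower, where 6.61% and 3.06% of 10020 genes tested were called higher and lower (edgeR's quasi-likelihood test, Benjamini-Hochberg adjusted p under 0.05). On laminin, 1 gene was called higher and 2 lower, beside 12.1% and 6.96% of all genes, and with no coating 0 were called higher and 1 lower, beside 8.48% and 4.1%. At an unadjusted p under 0.05 in the edgeR test, 10, 14 and 12 of the 45 genes were counted on the 3 surfaces, and 2697, 3577 and 3201 of all 10020 genes. DESeq2 called 2, 7 and 3 of the 45 genes, beside 13.2%, 22.2% and 16.6% of all genes. The median log2 fold change of the 45 genes was -0.01 on fibronectin, -0.04 on laminin and -0.02 with no coating, where the medians of all genes were 0.00, -0.01 and 0.00. All 45 genes passed the filter on low counts. The 3 comparisons share the suspension libraries.

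These counts depended on how batches were handled. With batch 3 left out, 0 genes were called higher and 3 lower on fibronectin, beside 4.3% and 4.95% of 10045 genes. On laminin the counts became 1 higher and 5 lower, beside 8.55% and 10.3%, and with no coating 0 higher and 6 lower, beside 5.17% and 6.81%. With the batch as a replicate block over all 12 libraries, 7 were called higher and 5 lower on fibronectin (16.6% and 12.1% of all genes), 10 and 12 on laminin (22.4% and 20.8%) and 9 and 13 with no coating (20.1% and 18.7%). This block fits the same shift for a batch in every group. It therefore does not model the shift of attached replicate 3, which was not seen in suspension. The genes called over all 12 libraries, without batch 3 and with the replicate block are named with their families below.

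**Figure D2:**
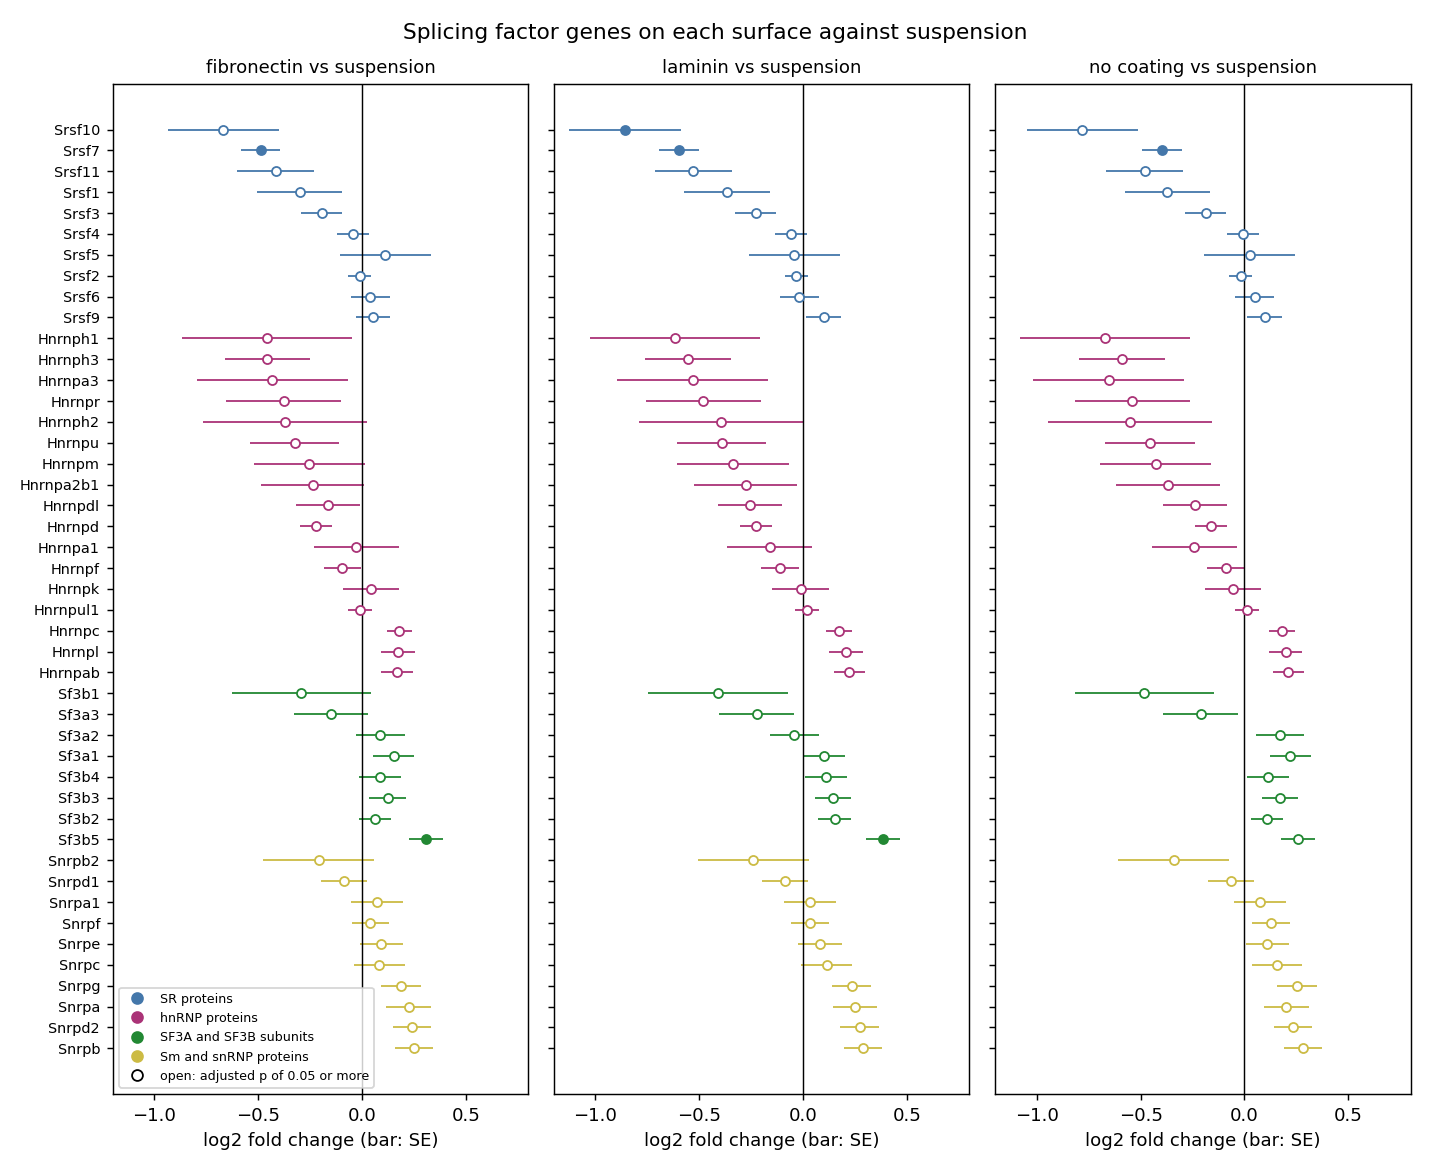
Log2 fold change against suspension (horizontal axis, with SE bars) of the 45 genes on fibronectin, laminin and dishes with no coating, from edgeR over all 12 libraries; filled points have an adjusted p under 0.05. Srsf7 is filled in all 3 panels, Sf3b5 in the first and second and Srsf10 in the second alone.

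Among the SR genes, Srsf7 encodes a shuttling SR protein that also takes part in mRNA export. Its level was 163, 158 and 160.1 CPM in suspension, 105, 122 and 108 on fibronectin, 104, 118 and 95.1 on laminin and 119.8, 126 and 115 with no coating. No attached library overlapped the suspension libraries. The log2 fold change was -0.49 ± 0.09 (SE) on fibronectin (edgeR, adjusted p = 0.00951), -0.60 ± 0.09 on laminin (adjusted p = 0.00227) and -0.40 ± 0.09 with no coating (adjusted p = 0.0216). Within each batch the difference was negative in 9 of 9 surface-suspension pairs, from -0.64 to -0.33 in batches 1 and 2 and from -0.75 to -0.48 in batch 3. With batch 3 left out it stood at -0.46, -0.52 and -0.35 on the 3 surfaces, with edgeR adjusted p of 0.015, 0.00603 and 0.0348. The call on fibronectin and on laminin held in all 14 alternatives each. That with no coating was lost without suspension replicate 1, 2 or 3 and without no-coating replicate 3, where the edgeR adjusted p reached at most 0.0758.

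Srsf10 encodes an SR protein that represses splicing when it is dephosphorylated, as after heat shock or in mitosis. It stood at 76.8, 75.1 and 75.8 CPM in suspension, 44.5, 57.8 and 37.5 on fibronectin, 42.8, 53.6 and 28.7 on laminin and 49.4, 52.2 and 28.7 with no coating. All 9 attached libraries lay below suspension, and replicate 3 was the lowest on each surface. The log2 fold change of -0.86 ± 0.27 on laminin passed edgeR's test (adjusted p = 0.0476). The values of -0.67 ± 0.27 on fibronectin and -0.78 ± 0.27 with no coating did not (edgeR, adjusted p = 0.14 and 0.0781). The call on laminin was lost without suspension replicate 1, 2 or 3, laminin replicate 1 or laminin replicate 3 (edgeR, adjusted p up to 0.134). With batch 3 left out the spread between replicates was smaller, and the log2 fold changes of -0.53 ± 0.13, -0.64 ± 0.13 and -0.55 ± 0.13 passed the test on all 3 surfaces (edgeR, adjusted p = 0.0374, 0.0123 and 0.0304). With the replicate block they were -0.71, -0.92 and -0.84, also past the edgeR threshold on each surface (adjusted p = 0.014, 0.00314 and 0.00577).

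Srsf11 encodes a protein with an SR domain that binds U2AF at the 3′ splice site. Its level was 167, 159 and 155 CPM in suspension, 122, 132 and 97.2 on fibronectin, 122, 124 and 86.1 on laminin and 130.1, 119.9 and 89.1 with no coating. No attached library reached the suspension range. Over 12 libraries the log2 fold changes of -0.42, -0.53 and -0.48, each ± 0.19, missed the edgeR threshold (adjusted p = 0.18, 0.0692 and 0.11). With batch 3 left out, -0.32, -0.39 and -0.35, each ± 0.07, passed it (edgeR, adjusted p = 0.0333, 0.0102 and 0.0211), and so did the replicate block, at -0.44, -0.56 and -0.51 (edgeR, adjusted p = 0.0128, 0.00299 and 0.00559).

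**Figure D3:**
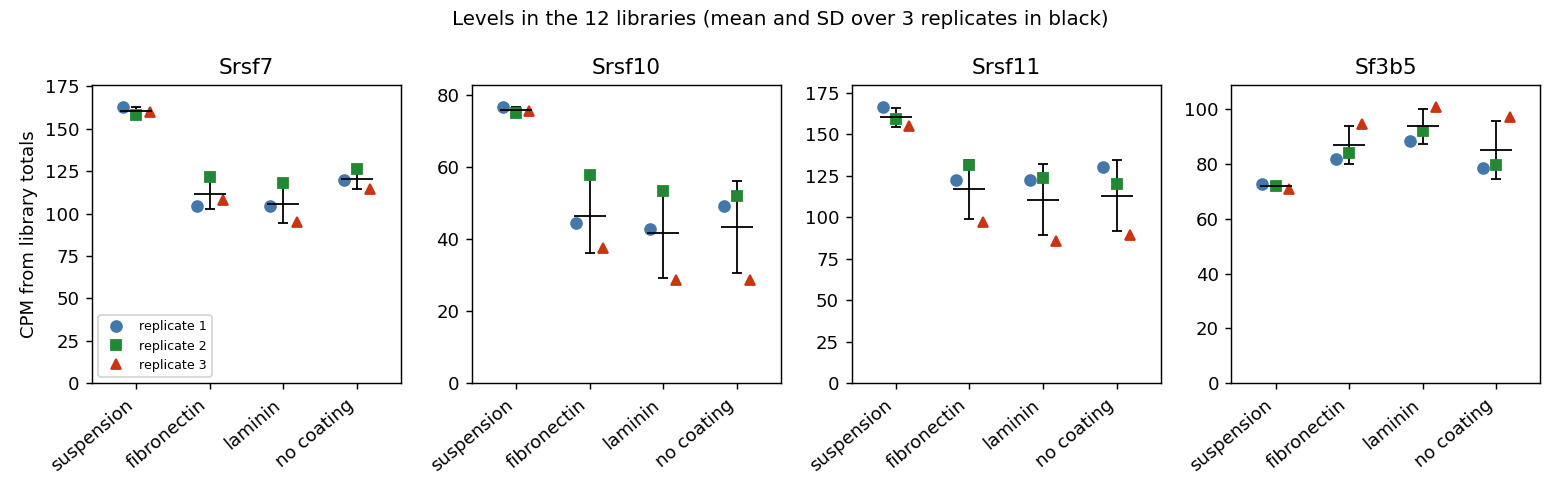
CPM from library totals (vertical axis, from 0) of Srsf7, Srsf10, Srsf11 and Sf3b5 in the 12 libraries by group, with the mean and SD of 3 replicates in black. The suspension libraries lie above all attached libraries in the first 3 panels and below them in the last.

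Srsf1, the founding member of the family and a splicing factor that is also an oncoprotein, stood at 703, 698 and 707 CPM in suspension, 534, 657 and 479 on fibronectin, 589.5, 632 and 407 on laminin and 597, 611 and 395 with no coating. Here too the groups did not overlap, yet the log2 fold changes, between -0.37 and -0.30, had an SE of 0.21 and did not pass. Without batch 3 they were -0.19, -0.18 and -0.18, each ± 0.09, and did not pass either (edgeR, adjusted p between 0.172 and 0.22). With the replicate block Srsf1 passed at -0.41 on laminin and with no coating (edgeR, adjusted p = 0.0322 and 0.0338). Srsf2, which binds exonic enhancers and carries its own poison exons, stood at 617, 586 and 592 CPM in suspension and between 539 and 608 on the surfaces. Its log2 fold changes were -0.01, -0.03 and -0.02, each ± 0.06, and the groups overlapped. Without batch 3 they were -0.04, -0.06 and -0.03, and none passed. Srsf5 differed in direction between batches: the attached libraries lay between -0.00 and 0.34 log2 units from suspension in batches 1 and 2 and between -0.41 and -0.15 in batch 3. Srsf3, Srsf4, Srsf6 and Srsf9 had log2 fold changes between -0.23 and 0.10 over the 3 surfaces, of which the replicate block called that of Srsf3 on laminin (-0.24, edgeR adjusted p = 0.0329).

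Of the 17 hnRNP genes, 0 were called on any surface over the 12 libraries by edgeR. On fibronectin, laminin and with no coating it called 6.61%, 12.1% and 8.48% of all genes higher and 3.06%, 6.96% and 4.1% lower. At an unadjusted p under 0.05, 4, 5 and 4 of the 17 were counted on fibronectin, laminin and with no coating, and DESeq2 called 0, 2 and 1. Of all 10020 genes, 2697, 3577 and 3201 were counted, and DESeq2 called 13.2%, 22.2% and 16.6%. The 3 genes of the hnRNP H group by name, whose proteins bind runs of G, were all low in attached replicate 3. Hnrnph1 stood at 299, 265 and 273 CPM in suspension, 225, 253 and 116 on fibronectin, 212, 237 and 92.0 on laminin and 214, 209 and 93.4 with no coating. Hnrnph2 stood at 284, 266 and 271 CPM in suspension, 238, 248 and 132 on fibronectin, 251, 252 and 116 on laminin and 242, 217 and 89.6 with no coating. Hnrnph3, the member of this group at 35.5, 33.8 and 34.1 CPM in suspension, stood at 25.6, 28.9 and 18.9 on fibronectin, 25.5, 26.8 and 17.9 on laminin and 23.7, 26.2 and 17.6 with no coating. In all 3 genes the 9 attached libraries lay below suspension, and attached replicate 3 lay below attached replicates 1 and 2. Hnrnpf, which encodes a related protein that binds runs of G, did not share this. It stood between 590 and 610 CPM in attached replicate 3 and between 574 and 680 in attached replicates 1 and 2.

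With batch 3 left out, Hnrnph1 fell by 0.31 on laminin and by 0.38 with no coating, on the log2 scale and each ± 0.08 (edgeR, adjusted p = 0.0351 and 0.0231). Hnrnph3 fell by 0.39 and 0.44, each ± 0.09 (edgeR, adjusted p = 0.0214 and 0.0198). On fibronectin neither passed, at -0.20 ± 0.08 and -0.30 ± 0.09 (edgeR, adjusted p = 0.181 and 0.0761). Hnrnpr, which encodes an RNA-binding protein close to SYNCRIP, fell by 0.28 ± 0.07 with no coating in the same fit (edgeR, adjusted p = 0.0408). It was not called on fibronectin or laminin there. With the replicate block, Hnrnph3 was called lower on all 3 surfaces, Hnrnph1, Hnrnpa3, Hnrnpdl, Hnrnpr and Hnrnpu on laminin and with no coating, Hnrnpd on fibronectin and laminin, and Hnrnpa2b1, Hnrnph2 and Hnrnpm with no coating alone.

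Other hnRNP genes differed the other way. Hnrnpab, which encodes a single-strand DNA and RNA binding protein, stood at 666, 732 and 748 CPM in suspension, 713, 834 and 811 on fibronectin, 791, 866 and 844 on laminin and 763, 841 and 855 with no coating. Hnrnpc, which encodes a protein that binds U tracts and competes with U2AF, stood at 382, 372 and 393 CPM in suspension, 389, 442 and 437 on fibronectin, 428, 433 and 429 on laminin and 415, 444 and 423 with no coating. Hnrnpl, which encodes a protein that binds CA repeats, stood at 538, 564 and 553 CPM in suspension and between 564 and 709 on the surfaces. In each of the 3 genes every attached library exceeded the suspension library of its own batch, 9 of 9 pairs. Their log2 fold changes lay between 0.17 and 0.22, with SEs of 0.06 to 0.08, and missed the edgeR threshold over 12 libraries. Without batch 3 they lay between 0.12 and 0.26 and missed it as well (edgeR, adjusted p between 0.0783 and 0.336). With the replicate block all 3 were called higher on all 3 surfaces, with edgeR adjusted p between 0.00368 and 0.0336.

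Hnrnpd encodes AUF1, a protein that binds AU-rich elements and affects mRNA decay. It stood at 239, 231 and 249.8 CPM in suspension, 190.2, 219 and 194 on fibronectin, 209, 214 and 191 on laminin and 209, 218 and 208 with no coating. All 9 attached libraries lay below suspension, with log2 fold changes of -0.22, -0.23 and -0.16, each ± 0.08, that did not pass (edgeR, adjusted p = 0.0975, 0.0626 and 0.177). Without batch 3 they were -0.16, -0.14 and -0.10, and none passed (edgeR, adjusted p between 0.227 and 0.411). Hnrnpul1, Hnrnpk and Hnrnpf had log2 fold changes between -0.11 and 0.04 and overlapped suspension on each surface.

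The SF3A and SF3B genes split. Sf3b5 encodes the smallest subunit of SF3B. It stood at 72.6, 71.9 and 71.0 CPM in suspension, 81.9, 84.1 and 94.7 on fibronectin, 88.6, 92.0 and 101 on laminin and 78.5, 79.5 and 97.2 with no coating. All 9 attached libraries exceeded all suspension libraries, and replicate 3 was the highest on each surface. The log2 fold change was 0.31 ± 0.08 on fibronectin (edgeR, adjusted p = 0.0388) and 0.39 ± 0.08 on laminin (adjusted p = 0.0107). With no coating it was 0.26 ± 0.08 and did not pass (edgeR, adjusted p = 0.0614), while with the replicate block it was 0.25 and passed (adjusted p = 0.0119). The call on laminin held in all 14 alternatives. The call on fibronectin was lost when any 1 of the 6 libraries compared was left out, with no low-count filter, with scaling by library size alone and without batch 3, where the log2 fold change was 0.24 ± 0.07 (edgeR, adjusted p = 0.0625). Over its alternatives the edgeR or DESeq2 adjusted p ranged from 0.0071 to 0.162.

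Sf3b1, which encodes the largest subunit and contacts the branch site, went the other way. It stood at 695, 689.9 and 701 CPM in suspension, 610.4, 632 and 415 on fibronectin, 636, 612 and 313 on laminin and 632, 562 and 269 with no coating. The 9 attached libraries lay below suspension, with log2 differences from -0.30 to -0.13 within batches 1 and 2 and from -1.38 to -0.75 within batch 3. The log2 fold changes of -0.29, -0.41 and -0.48 had SEs of 0.33 to 0.34 and did not pass edgeR's test (adjusted p = 0.598, 0.395 and 0.33). Without batch 3 they were -0.11, -0.14 and -0.18, each ± 0.08, and did not pass (edgeR, adjusted p between 0.167 and 0.391). Sf3a1, a subunit of SF3A that also contacts the U1 snRNP, stood at 192, 193 and 201 CPM in suspension, 192, 215 and 228 on fibronectin, 184, 201 and 243 on laminin and 203, 217 and 256 with no coating. It did not pass over the 12 libraries or without batch 3, and with the replicate block it was called with no coating alone (0.22, edgeR adjusted p = 0.0157). The most highly counted gene of the family after Sf3b1, Sf3b2, stood between 367 and 378 CPM in suspension and between 353 and 458 on the surfaces, with log2 fold changes of 0.06, 0.15 and 0.11 that did not pass, of which the replicate block called that on laminin (0.15, edgeR adjusted p = 0.0341). Sf3a2, Sf3a3, Sf3b3 and Sf3b4 were not called over the 12 libraries, with log2 fold changes between -0.22 and 0.17, and of these the replicate block called Sf3b3 on laminin and with no coating.

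Of the 10 Sm and snRNP genes, 0 passed edgeR's test on any surface over the 12 libraries. On fibronectin, laminin and with no coating this test called 6.61%, 12.1% and 8.48% of all genes higher and 3.06%, 6.96% and 4.1% lower. At an unadjusted p under 0.05, 2, 4 and 3 of the 10 were counted on fibronectin, laminin and with no coating, and DESeq2 called 0, 1 and 0. Of all 10020 genes, 2697, 3577 and 3201 were counted, and DESeq2 called 13.2%, 22.2% and 16.6%. The log2 fold changes of this family were positive for 8 of 10 genes on each surface, with medians of 0.09, 0.10 and 0.14. Those of all genes were positive for 5022, 4900 and 5042 of 10020. Snrpb, which encodes the Sm proteins B and B′ and regulates its own splicing, stood at 280.5, 281 and 287 CPM in suspension, 306, 323 and 356 on fibronectin, 313, 343 and 378 on laminin and 292, 339 and 389 with no coating. Snrpd2, which encodes the Sm protein D2, stood at 77.6, 75.0 and 76.0 CPM in suspension, 82.7, 82.8 and 98.3 on fibronectin, 83.6, 92.7 and 99.4 on laminin and 78.9, 86.5 and 101 with no coating. In both genes every attached library exceeded every suspension library. The log2 fold changes of Snrpb were 0.25, 0.29 and 0.28, each ± 0.09 (edgeR, adjusted p = 0.11, 0.0512 and 0.0673). Those of Snrpd2 were 0.24, 0.27 and 0.23, each ± 0.09 (edgeR, adjusted p = 0.122, 0.061 and 0.114). With the replicate block both were called higher on all 3 surfaces, with edgeR adjusted p from 0.00477 to 0.0274. Without batch 3 neither was called, at 0.21, 0.24 and 0.20 for Snrpb and 0.16, 0.22 and 0.15 for Snrpd2 (edgeR, adjusted p between 0.0777 and 0.262). The replicate block also called Snrpa, which encodes the U1 protein A, on fibronectin and laminin (0.22 and 0.24, edgeR adjusted p = 0.0482 and 0.0258) and Snrpg on laminin and with no coating (0.23 and 0.25, edgeR adjusted p = 0.0373 and 0.0291). Snrpg, another protein of the Sm ring, stood at 92.1, 77.6 and 84.7 CPM in suspension and between 83.6 and 110.4 on the surfaces, and its groups overlapped on fibronectin. Snrpb2, which encodes the U2 protein B″, and Snrpd1, which encodes the Sm protein D1, were the genes with negative log2 fold changes, from -0.34 to -0.21 and from -0.09 to -0.06, and neither was called.

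Counted over all 45 genes, 13 lay below suspension in all 9 attached libraries (28.9%) and 3 lay above, where the shares of all 10020 genes were 16.7% below and 11.9% above. The 13 were Srsf1, Srsf7, Srsf10, Srsf11, Hnrnpa3, Hnrnpd, Hnrnph1, Hnrnph2, Hnrnph3, Hnrnpm, Hnrnpr, Hnrnpu and Sf3b1. The 3 above were Sf3b5, Snrpb and Snrpd2. With TMM-scaled CPM the counts were 12 below and 6 above. By family the counts below and above were 4 and 0 of 10 for SR genes, 8 and 0 of 17 for hnRNP genes, 1 and 1 of 8 for SF3A and SF3B genes and 0 and 2 of 10 for Sm and snRNP genes.

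Replicate 3 on the surfaces separated these genes further. The 3 attached replicate 3 libraries lay below all 6 attached libraries of replicates 1 and 2 in 18 of the 45 genes and above them in 14, where 20.3% of all genes lay below and 20.3% above. With TMM-scaled CPM the counts were 19 and 12. By family, 11 of 17 hnRNP genes lay below and 2 above, and 4 of 10 SR genes lay below and 1 above. Of the SF3A and SF3B genes 2 of 8 lay below and 6 above, and of the Sm and snRNP genes 1 of 10 lay below and 5 above. The mean log2 ratio over the surfaces was -0.5 or lower in 13 of the 45 genes, and in 1473 of the 10020 genes tested. The median over the 45 genes was -0.11, where that of all genes was 0.07. In suspension, the log2 ratio of replicate 3 to the mean of replicates 1 and 2 lay between -0.14 and 0.10 for all 45 genes. These ratios carry no test, since the libraries were known to stand apart.

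The 6 genes with the lowest mean ratios were Hnrnph1 at -1.17, Hnrnph2 at -1.12, Hnrnpa3 at -1.01, Sf3b1 at -0.91, Hnrnpr at -0.74 and Hnrnpm at -0.72. Hnrnpa3, which encodes a relative of the splicing silencer hnRNP A1, stood at 491, 469.9 and 496 CPM in suspension, 378, 452 and 221 on fibronectin, 363, 444 and 195 on laminin and 366, 369.8 and 174 with no coating. Hnrnpr stood at 103, 99.1 and 107 CPM in suspension, 81.8, 90.6 and 58.9 on fibronectin, 87.6, 85.3 and 47.0 on laminin and 81.0, 80.8 and 46.6 with no coating. Hnrnpm, which encodes a protein that binds GU-rich sequence, stood at 301, 302 and 310.0 CPM in suspension, 264, 299.8 and 183 on fibronectin, 274, 289 and 156 on laminin and 257, 253 and 158 with no coating. In each of these genes the lowest attached libraries were the 3 of replicate 3, on every surface. The 6 genes with the highest mean ratios were Sf3a2 at 0.31, Sf3b4 at 0.28, Snrpc at 0.27, Sf3a1 at 0.26, Snrpd2 at 0.23 and Snrpb at 0.23. Sf3a2, a subunit of SF3A, stood at 89.8, 85.2 and 87.9 CPM in suspension, 85.8, 89.7 and 97.3 on fibronectin, 71.8, 80.0 and 104 on laminin and 87.5, 92.9 and 113 with no coating. Sf3b4, an SF3B subunit that contacts RNA near the branch site, stood at 206, 211 and 208 CPM in suspension, 203, 207 and 239 on fibronectin, 198, 219 and 257 on laminin and 199, 215 and 257 with no coating. Snrpc, which encodes the U1 protein C, stood at 46.2, 47.1 and 49.0 CPM in suspension, 44.1, 46.7 and 56.6 on fibronectin, 45.6, 52.0 and 56.2 on laminin and 42.8, 54.6 and 59.7 with no coating. In these 3 genes the attached libraries of replicates 1 and 2 overlapped suspension and those of replicate 3 lay above it.

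**Figure D4:**
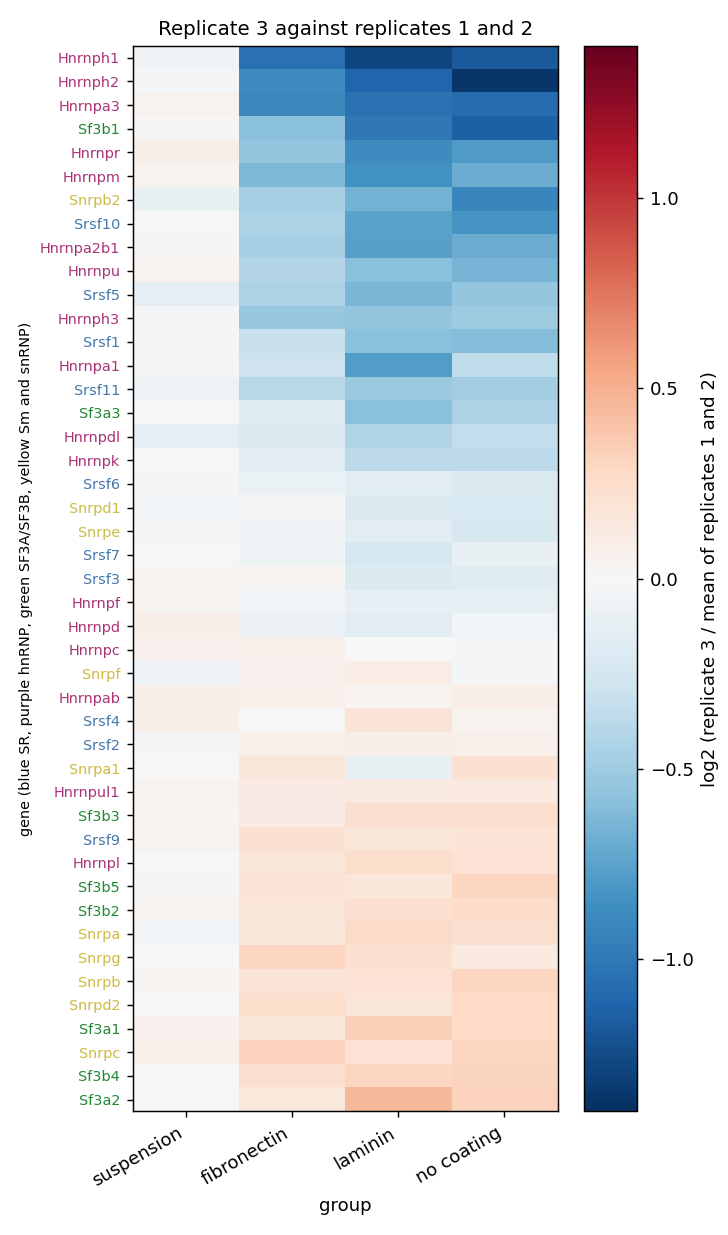
Heat map of the log2 ratio of replicate 3 to the mean of replicates 1 and 2 (colour, blue lower and red higher) for the 45 genes in the 4 groups, sorted by the mean over the 3 surfaces, with gene names coloured by family. The suspension column stays between -0.14 and 0.10, while the surface columns run from blue for Hnrnph1 (mean -1.17) to red for Sf3a2 (mean 0.31).

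**Figure D5:**
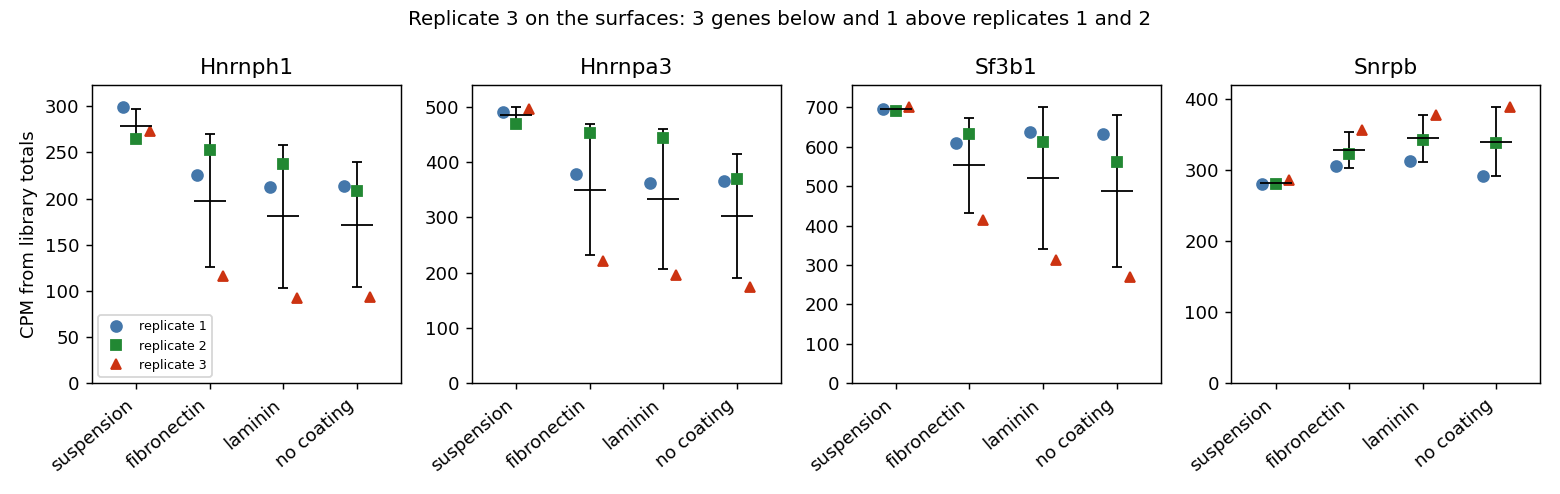
CPM from library totals (vertical axis, from 0) of Hnrnph1, Hnrnpa3, Sf3b1 and Snrpb in the 12 libraries by group, with the mean and SD of 3 replicates in black. Replicate 3 is the lowest attached library of each surface in the first 3 panels and the highest in the last, and is near the others in suspension.

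Between surfaces, edgeR called 0 of the 45 genes for laminin against fibronectin, fibronectin against no coating and laminin against no coating, beside 0.15%, 0.18% and 0.0% of all genes in either direction. At an unadjusted p under 0.05, 0 genes were counted in each comparison, and DESeq2 also called 0 in each, beside 0.449%, 0.529% and 0.0% of all genes. The log2 differences of the 45 genes lay between -0.19 (Srsf10) and 0.09 (Sf3b2) for laminin minus fibronectin, between -0.09 (Srsf7) and 0.22 (Hnrnpa3) for fibronectin minus no coating and between -0.21 (Sf3a2) and 0.15 (Hnrnph2) for laminin minus no coating. These 6 genes were singled out after their values were seen. For Srsf10 and laminin minus fibronectin the SE was 0.27, larger than the difference.

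Other genes of the splicing machinery were followed in 10 lists that hold 197 genes, of which 175 were in the files and 168 were tested. Over the 12 libraries, edgeR called 7 higher and 3 lower on fibronectin, 13 and 5 on laminin and 8 and 3 with no coating, where the shares of all genes called were 6.61% and 3.06%, 12.1% and 6.96%, and 8.48% and 4.1%. With batch 3 left out the counts became 5 and 8 (all genes 4.3% and 4.95%), 11 and 19 (8.55% and 10.3%), and 5 and 16 (5.17% and 6.81%). With the replicate block they were 18 and 15 (16.6% and 12.1%), 29 and 37 (22.4% and 20.8%), and 30 and 37 (20.1% and 18.7%). The 23 SR-related proteins tested had median log2 fold changes of -0.23, -0.29 and -0.29, with 0 called higher and 1, 1 and 0 lower by edgeR. Without batch 3, 1 was called higher on each surface and 3, 7 and 6 lower, where 4.95%, 10.3% and 6.81% of all genes were called lower. The replicate block called 1 of the 23 higher on each surface and 4, 12 and 12 lower. For all genes its shares were 16.6%, 22.4% and 20.1% higher and 12.1%, 20.8% and 18.7% lower. In attached replicate 3, 14 of the 23 lay below attached replicates 1 and 2, as did 20.3% of all genes. Srrm2, which encodes a large scaffold of nuclear speckles, stood at 979, 889 and 919 CPM in suspension, 698, 743 and 566 on fibronectin, 601, 608 and 559 on laminin and 743, 743 and 601 with no coating. It fell by 0.44 ± 0.12 on fibronectin and by 0.65 ± 0.12 on laminin on the log2 scale (edgeR, adjusted p = 0.0469 and 0.00556), and the fall of 0.30 ± 0.06 with no coating passed without batch 3 (edgeR, adjusted p = 0.0198) but not with it (0.0559).

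Among the 13 kinases, phosphatases and importers of SR proteins tested, Clk3, a kinase that phosphorylates SR proteins, rose on all 3 surfaces. It stood at 61.3, 53.4 and 58.7 CPM in suspension and between 68.1 and 78.6 on the surfaces, with log2 fold changes of 0.41, 0.41 and 0.38, each ± 0.07 (edgeR, adjusted p = 0.00405, 0.00305 and 0.00586). These passed without batch 3 as well (edgeR, adjusted p = 0.0219, 0.0125 and 0.0292). Dyrk1b, a kinase of the same superfamily, rose by 0.99 ± 0.22 on fibronectin and by 0.93 ± 0.22 on laminin (edgeR, adjusted p = 0.02 and 0.018), calls that were lost without batch 3 (0.107 and 0.0999). Its level was low, at 6.95, 3.77 and 4.15 CPM in suspension, 9.68, 8.30 and 10.7 on fibronectin and 9.37, 8.01 and 10.7 on laminin. With no coating it stood at 8.63, 5.98 and 8.88 CPM and overlapped suspension. Of the 34 other hnRNP-class and splicing regulators tested, 1, 3 and 1 were called higher and 1, 1 and 2 lower on the 3 surfaces. Of all genes, 6.61%, 12.1% and 8.48% were called higher and 3.06%, 6.96% and 4.1% lower. Without batch 3, 1, 2 and 1 of the 34 were called higher and 4, 7 and 6 lower. In that fit 4.3%, 8.55% and 5.17% of all genes were called higher and 4.95%, 10.3% and 6.81% lower. With the replicate block, 4, 6 and 6 of the 34 were called higher and 4, 11 and 14 lower. The block called 16.6%, 22.4% and 20.1% of all genes higher and 12.1%, 20.8% and 18.7% lower. Rbm3, which encodes a cold-inducible RNA-binding protein, rose by 0.30, 0.36 and 0.27, each ± 0.06 (edgeR, adjusted p = 0.0077, 0.00237 and 0.0125), with and without batch 3. Rbm20, which encodes a regulator of titin splicing in the heart, stood between 10.2 and 10.5 CPM in suspension and between 5.68 and 9.99 on the surfaces. It fell by 0.64 and 0.56 on fibronectin and with no coating, each ± 0.16 (edgeR, adjusted p = 0.0347 and 0.0485), and on laminin the fall of 0.55 ± 0.15 passed without batch 3 alone (edgeR, adjusted p = 0.0354).

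Of the 10 genes of the exon junction complex and nonsense-mediated decay tested, 2 were called higher and 1 lower on each surface. Without batch 3, 0, 2 and 1 of these were called higher and 1, 1 and 2 lower. Smg6, the endonuclease of this pathway, rose by 0.51, 0.57 and 0.59, each ± 0.12 (edgeR, adjusted p = 0.0236, 0.0103 and 0.0105), and Upf3a, which encodes a factor that bridges to the exon junction complex, rose by 0.25, 0.31 and 0.28, each ± 0.07 (edgeR, adjusted p = 0.0429, 0.0136 and 0.0271). Without batch 3 the fibronectin calls of Smg6 and Upf3a were lost (edgeR, adjusted p = 0.0973 and 0.0994), as was that of Upf3a with no coating (0.0822). Puf60, which encodes a partner of U2AF, rose by 0.37, 0.41 and 0.34, each ± 0.10 (edgeR, adjusted p = 0.0417, 0.019 and 0.046). The last of these was lost without batch 3 (0.0713). Syf2, a Prp19-associated splicing factor, rose by 0.47, 0.44 and 0.32, each ± 0.08 (edgeR, adjusted p = 0.00465, 0.00529 and 0.0281), and its call with no coating was lost without batch 3 (0.108). Clns1a, which encodes the Sm assembly chaperone pICln, rose on laminin by 0.28 and with no coating by 0.27, each ± 0.07 (edgeR, adjusted p = 0.0204 and 0.0328), and without batch 3 on laminin alone (0.0329). In the list of U2 auxiliary and branch site factors, which holds Puf60, 1, 2 and 1 of 10 genes were called higher and 0 lower. The second on laminin was Rbm5 (0.19 ± 0.06, edgeR adjusted p = 0.0449), a call lost without batch 3 (0.0857). Without batch 3, 1, 1 and 0 of the 10 were called higher and 0, 1 and 1 lower. In the list of the Prp19 complex and splicing helicases, which holds Syf2, 1 of 25 was called higher on each surface and 0 lower. Without batch 3, 1, 3 and 1 were higher and 0 lower. Of the SMN complex and Sm assembly factors 0, 1 and 1 of 16 were called higher and 0 lower. Without batch 3 these became 0, 1 and 0 higher and 0, 1 and 0 lower. The shares of all genes called are those given above for the lists together. Of the 11 genes in the list of LSm ring proteins, 0, 2 and 1 were called higher and 0 lower. They were Lsm4 on laminin (0.29 ± 0.08, edgeR adjusted p = 0.0268) and Naa38 on laminin and with no coating (0.33 and 0.36, each ± 0.10, edgeR adjusted p = 0.0427 and 0.043). None of these calls passed without batch 3. Naa38 does not carry an LSm name, and its place in the ring was not checked. Of 6 arginine methyltransferases, 0 were called higher and Prmt9 lower on laminin alone (-0.25 ± 0.08, edgeR adjusted p = 0.041), a call lost without batch 3 (0.115). Of the U1, U5 and tri-snRNP proteins 0 of 20, 1 of 20 and 0 of 20 were called, the 1 being Prpf40b, which fell by 1.07 ± 0.21 on laminin (edgeR, adjusted p = 0.00729), and by 0.92 ± 0.26 without batch 3 (edgeR, adjusted p = 0.0409). The level of Prpf40b was low, at 3.50, 2.66 and 3.31 CPM in suspension and 1.78, 1.44 and 1.27 on laminin.

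Reads of near-identical copies could be split between genes. In the GRCr8 table of RefSeq genes, 25 of the 45 genes had pseudogenes named after them, 7 for Srsf7, 3 for Srsf10, 51 for Hnrnpa1 and none for Sf3b5 and Srsf11. An overlapping gene was listed for 18 of the 45, among them Srsf1 (Vezf1), Hnrnph3 (Rufy2) and Hnrnpab (Phykpl), and none for Srsf7, Srsf10, Srsf11 and Sf3b5. Whether strand was used in the counting was not stated, so the levels of those 18 genes are uncertain in this respect.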

How the data were processed

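Total RNA of 12 rat cardiac progenitor libraries was sequenced after TruSeq Stranded Total RNA LT preparation, per the labels' protocols. The deposited values are raw counts per Entrez gene, 1 file per library, per the file headers. The submitters' processing notes name the build rn4. The aligner, counter, annotation and use of strand were not given in the sources used here. Of 16924 identifiers, 16761 matched a symbol in the RefSeq table of GRCr8, used for names, neighbours and promoter sequences.

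The 45 genes and the gene lists were chosen with earlier results of these data known. CPM in the text are counts over library totals. edgeR 4.0.16 (R 4.3.3, limma 3.58.1) fitted all 12 libraries in 1 model of 4 groups after filterByExpr (10020 genes) and TMM scaling (factors 0.962 to 1.03). Its quasi-likelihood p-values were adjusted by Benjamini-Hochberg over all genes tested, with a threshold of 0.05. Fold changes are log2 ± SE from this fit. DESeq2 1.42.0, other scalings, no filter, 2 groups only, batch 3 left out, each library left out and a replicate block were alternatives; the block without batch 3 was added after seeing the data. The edgeR fit without the block was tested on simulated counts for laminin against suspension alone. These counts were drawn with no batch effect, and the other fits were not tested in this way. Replicate numbers pair the samples, since the labels give libraries of the same number a common batch. Across genes, the residuals of log2 CPM after removing group means had a median correlation of 0.409 in 18 pairs from 1 batch (lowest 0.036) and of -0.124 in 36 other pairs. Between attached libraries of the same batch the lowest was 0.514, so the lowest values came from pairs with suspension. No replicate pair agreed within sampling noise (chi-square per degree of freedom 10.4 to 79.6).

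Named genes were, for each comparison with suspension, all called members (at most 12) and, per family, the 2 with the smallest p and the 1 with the highest mean count. For replicate 3 they were the 6 with the largest ratio in each direction. Per list of other genes they were the 2 with the smallest p. Of these last, Snrnp35, Plrg1, Scaf8, Phax and Prmt1 are not described in the text. EdgeR did not call them over the 12 libraries, so the other genes described lean towards those called. Other genes named in the text were chosen after their values were seen.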

Additional observations from a re-analysis of the deposited data

How the results depend on the processing

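The number of the 45 genes called against suspension was 2 on fibronectin, 3 on laminin and 1 with no coating. On fibronectin it was 1 with scaling by library size alone (0 higher, 1 lower), 1 with no low-count filter and 4 with the fit on 2 groups only, and 1 with any 1 library left out (1 to 1). DESeq2 called 7 on laminin and 3 with no coating. The replicate block gave 12, 22 and 22. Leaving out batch 3 gave 6 on laminin and 6 with no coating, and adding the block to that, 12, 16 and 17 on the 3 surfaces. Leaving out 1 library gave 2 to 3 on laminin and 0 to 2 with no coating, where the 0 came without suspension replicate 1, 2 or 3 or no-coating replicate 3. In the 3 comparisons between surfaces the count was 0 in every alternative run. The cause of these differences was not tested. Under TMM, mean summed levels in suspension became 1926 CPM for SF3A and SF3B genes, 925 for Sm and snRNP genes and 12248 for all 45. Of 448 alternative values of named genes, 384 kept their direction and side of the threshold, 45 passed it newly (33 with the replicate block), 18 lost it and 1 changed sign: Srsf2 on fibronectin without fibronectin replicate 1, at 0.0223, where leaving out each library in turn gave -0.0305 to 0.0223. Depth limits these genes little: the lowest count of any of the 45 in a library was 292 (Hnrnph3, no-coating replicate 3).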
